A study of Mus musculus with 6 samples.

Results

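The genes described here are 8 transcription regulators of red cell formation (Gata1, Zfpm1, Tal1, Lmo2, Ldb1, Klf1, Nfe2 and Gfi1b) and Epor, the erythropoietin receptor gene. They were chosen by gene symbol: every probe set of the deposited table that the platform's annotation gives to 1 of these 9 symbols. Each of the 9 genes had 1 probe set, so 9 of 35557 probe sets are described, and all 9 were bright enough to be tested. They were measured in the yolk sac at embryonic day 9.5, in 3 wild-type littermates and 3 GW182gt/gt embryos, which carry a mutant allele of Tnrc6a. Tnrc6a encodes GW182, the Argonaute partner through which microRNAs silence mRNAs. RNA of each single yolk sac was hybridised to 1 Mouse Gene 1.0 ST array, and with 3 arrays a genotype their number sets the precision. The genotype of both groups is also labelled "mixed", a word the sources used here do not explain, and the site of the mutation is not given in them.

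Red cells of this stage are made in blood islands of the yolk sac, where mesoderm gives rise to primitive erythroblasts beside the first vessels. GATA1 binds GATA motifs in red cell genes and works with its cofactor FOG1, the product of Zfpm1. It is joined there by TAL1, a basic helix-loop-helix factor that binds E boxes, and by the bridging proteins LMO2 and LDB1, which bind no DNA themselves. KLF1 binds CACCC boxes of globin and other red cell genes, NF-E2 (its p45 subunit is encoded by Nfe2) binds the globin locus control region, and GFI1B is mainly a repressor. The erythropoietin receptor signals through JAK2 and STAT5 to keep erythroblasts alive.

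Sequences just upstream of 4 of the genes whose signals were low in the same library, mutant 2, are shown as examples. Motifs of factors encoded by this set can be read in them. Zfpm1 and Tal1 were low there too, and their windows are not shown. Each sequence shown is the 250 bases before the gene's start in RefSeq on GRCm38.p6, 5' to 3' on the gene's strand. Capitals mark matches, on either strand, to the GATA motif (AGATAA or TGATAA) and to the CACCC box (CCNCNCCC, which also takes in GC boxes).
Gata1, chrX:7967911-7968160, minus strand: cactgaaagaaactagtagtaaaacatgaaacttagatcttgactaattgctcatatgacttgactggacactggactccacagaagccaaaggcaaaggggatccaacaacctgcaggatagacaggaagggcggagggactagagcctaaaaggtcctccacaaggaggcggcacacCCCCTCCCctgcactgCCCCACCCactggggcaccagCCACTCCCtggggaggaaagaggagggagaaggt
Klf1, chr8:84901732-84901981, plus strand: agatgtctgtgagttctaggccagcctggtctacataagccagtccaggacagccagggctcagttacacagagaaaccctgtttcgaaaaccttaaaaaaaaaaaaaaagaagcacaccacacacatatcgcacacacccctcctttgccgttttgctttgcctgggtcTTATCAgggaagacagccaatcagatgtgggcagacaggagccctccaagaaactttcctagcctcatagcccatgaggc
Gfi1b, chr2:28621983-28622232, minus strand: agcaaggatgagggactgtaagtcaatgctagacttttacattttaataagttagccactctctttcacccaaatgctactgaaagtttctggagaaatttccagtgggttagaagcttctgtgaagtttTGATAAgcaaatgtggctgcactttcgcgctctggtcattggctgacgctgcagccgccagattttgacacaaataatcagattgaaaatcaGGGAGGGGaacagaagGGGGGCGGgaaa
Epor, chr9:21963577-21963826, minus strand: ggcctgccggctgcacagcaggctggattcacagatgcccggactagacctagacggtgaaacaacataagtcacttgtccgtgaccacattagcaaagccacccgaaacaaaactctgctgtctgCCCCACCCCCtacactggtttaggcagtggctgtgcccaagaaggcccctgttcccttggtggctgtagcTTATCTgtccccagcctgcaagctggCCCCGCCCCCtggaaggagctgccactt

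The Epor window held a GATA match whose first base lies 54 bases before the start, and CACCC box matches on both sides of it. The Klf1 window held a GATA match 80 bases before the start and an E box (CAGNTG on either strand, here CAGATG) 59 bases before it. It held no CACCC box match. The Gfi1b window held a GATA match 120 bases before the start. The Gata1 window, which lies inside the span RefSeq gives to the gene, held 3 CACCC box matches, the nearest 34 bases before the start. It held no GATA match. RefSeq windows were found for 7 of the 9 genes, Tal1 with 2 starts and Ldb1 with 3, which made 10 windows. A GATA match stood in 5 of the 10 windows (16.6% of 32851 windows of all genes), a CACCC box in 8 (45.9% of all) and an E box in 3 (44.8% of all). Ldb1, whose windows are not shown, held 2 GATA matches upstream of 1 of its 3 starts. A match shows only that the letters are present.

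The libraries were checked before the genes were compared. The 6 array medians ran from 5.19 to 5.22 on the log2 scale. Afp, a visceral endoderm marker, read 12.56 to 12.68 and the embryonic globin gene Hbb-y 12.68 to 13.11, both near the top of the signal range. Tnrc6a read 8.40, 7.62 and 8.29 in wild types 1 to 3 and 5.33 and 5.20 in mutants 2 and 3, but 7.81 in the array labelled mutant 1. That level goes against its label, so each of the 9 differences is given with and without this library. Markers of trophoblast and decidua, which border the yolk sac, were unequal. Their summed linear signal over 10 of 14 listed genes was 488 to 1094 in wild type, highest in wild type 2, and 454 to 1224 in the mutants, highest in mutant 2. Prl8a2, a decidual prolactin-family hormone, read 7.44 in wild type 2, 9.11 in mutant 2 and 3.51 to 4.09 elsewhere. The trophoblast genes Tpbpa (1.88 to 2.28) and Ctsq (1.90 to 2.18) were near the bottom of the scale in all 6 libraries. Ctsj, another listed gene too dim to be tested, read 4.36 in mutant 2 and 3.29 to 3.72 elsewhere.

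None of the 9 genes passed the test between genotypes, while 7 of them read at least 0.5 log2 units lower in mutant 2 than the wild-type mean. With limma and Benjamini-Hochberg adjustment, 0 of the 9 genes and 0 of 16387 tested probe sets (0%) had an adjusted p under 0.05, and each gene's adjusted p was 0.999. At an unadjusted p under 0.05 there were 0 of the 9 genes against 3.53% of all tested probe sets (1.28% lower in the mutants). The methods' t-test gave 627 probe sets under 0.05 and 0 after adjustment. The mutant mean was below the wild-type mean for 8 of 9 genes, with a median log2 difference of -0.23 against 0.0063 over all tested probe sets. The groups did not overlap for 1 of 9 genes, Epor, against 8.55% of all tested probe sets (3.38% lower in the mutants). The standard errors of the 9 differences had a median of 0.19, above the 0.10 of all tested probe sets.

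Gata1 (probe set 10603417), on the X chromosome, read 8.29, 8.12 and 8.50 in wild types 1 to 3, and 7.30 in mutant 2, 8.23 in mutant 3 and 8.33 in the array labelled mutant 1. The genotypes overlapped, since only mutant 2 lay outside the wild-type range. The wild-type mean was 8.30 ± 0.19 (SD, n = 3), and that of the mutants 7.95 ± 0.57 (SD, n = 3), which gives a log2 difference of -0.35 (SE 0.26, 95% interval -0.97 to 0.26, exact two-sided permutation p = 0.5). The difference was -0.026 without mutant 2 and -0.54 without the array labelled mutant 1. Because Gata1 is X-linked, it was set beside Xist, the RNA of the inactive X. Xist was at or above 9.63 in wild type 1, the array labelled mutant 1 and mutant 3, where Gata1 read 8.23 to 8.33, and at 3.58 to 3.90 in the other 3 libraries, which held both the highest and the lowest Gata1 value.

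Zfpm1 (10576090), which encodes the GATA1 cofactor FOG1, read 8.53, 8.22 and 8.62 in wild types 1 to 3. Among the mutants, mutant 2 read 7.82, mutant 3 read 8.37 and the array labelled mutant 1 read 8.49. Again mutant 2 alone left the wild-type range, and the log2 difference was -0.23 (SE 0.19, exact permutation p = 0.5). It was -0.024 without mutant 2 and -0.36 without the array labelled mutant 1.

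**Figure D1:**
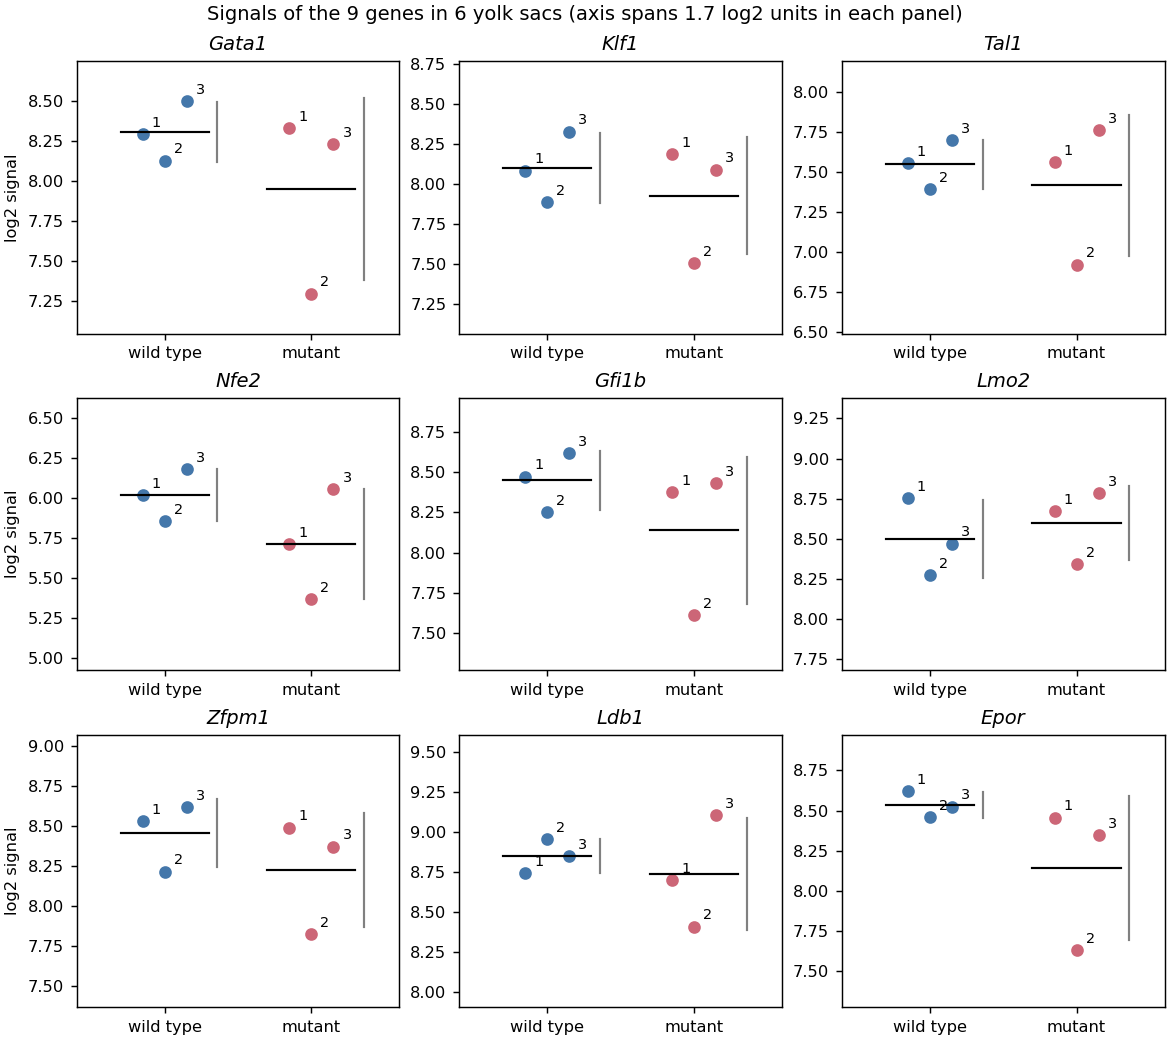
Log2 signal of each of the 9 genes in the 3 wild-type (blue) and 3 mutant (red) libraries, numbered by replicate, with the group mean (black line) and ± 1 SD (grey bar); number 1 among the mutants is the array labelled mutant 1. Mutant 2 is the lowest point in every panel but that of Lmo2, where it reads 8.34 against 8.27 in wild type 2.

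The complex of TAL1, LMO2 and LDB1 was lowest in mutant 2 for Tal1 and Ldb1 and in wild type 2 for Lmo2. Tal1 (10507131) read 7.56, 7.39 and 7.70 in wild types 1 to 3, 7.56 in the array labelled mutant 1, 6.92 in mutant 2 and 7.76 in mutant 3. Mutant 2 lay below all wild types and mutant 3 above them, so the log2 difference of -0.13 (SE 0.21, exact permutation p = 0.9) became 0.11 without mutant 2. It was -0.21 without the array labelled mutant 1 and -0.31 without mutant 3. Lmo2 (10474201), a bridging protein also found in endothelium, read 8.76, 8.27 and 8.47 in wild type. It read 8.67, 8.34 and 8.78 in the array labelled mutant 1, mutant 2 and mutant 3, and it was the 1 gene of the 9 with a higher mutant mean (log2 difference 0.10, SE 0.16, exact permutation p = 0.7). Its lowest library was wild type 2, and without that library the difference was -0.013, while it was 0.063 without the array labelled mutant 1. Ldb1 (10468159), the protein that joins such complexes in pairs, read 8.74, 8.95 and 8.85 in wild type and 8.70, 8.41 and 9.11 in the mutants in the same order. The mutants thus spanned more than the wild types, on both sides, with a log2 difference of -0.11 (SE 0.17, exact permutation p = 0.7) that was 0.055 without mutant 2. It was -0.090 without the array labelled mutant 1 and -0.29 without mutant 3. Whether Lmo2 or Ldb1 differed from the other genes of the set in this respect was not tested.

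Klf1 (10573457) read 8.08, 7.89 and 8.33 in wild type, 8.19 in the array labelled mutant 1, 7.51 in mutant 2 and 8.09 in mutant 3. Outside mutant 2 the genotypes shared 1 range, and the log2 difference of -0.17 (SE 0.19, exact permutation p = 0.7) was 0.039 without that library and -0.30 without the array labelled mutant 1. Gfi1b (10481304) read 8.47, 8.25 and 8.62 in wild type and 8.37, 7.61 and 8.43 in the mutants. Its log2 difference of -0.31 (SE 0.22, exact permutation p = 0.4) was -0.046 without mutant 2 and -0.43 without the array labelled mutant 1.

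Nfe2 (10433096) read 6.02, 5.86 and 6.18 in wild type, 5.71 in the array labelled mutant 1, 5.37 in mutant 2 and 6.05 in mutant 3. Mutant 2 and the array labelled mutant 1, whose Tnrc6a level lies within the wild-type range, were below every wild type, and mutant 3 lay among them. The log2 difference was -0.31 (SE 0.18, 95% interval -0.72 to 0.10, exact permutation p = 0.3), and -0.31 without the array labelled mutant 1, -0.14 without mutant 2 or -0.48 without mutant 3.

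Epor (10591660) had the narrowest wild-type spread of the 9 genes and was the gene whose genotypes did not overlap. It read 8.62, 8.46 and 8.53 in wild type, with an SD of 0.080, and 8.46 in the array labelled mutant 1, 7.63 in mutant 2 and 8.34 in mutant 3. The array labelled mutant 1 lay just under wild type 2, at the same value to 2 decimals. The log2 difference was -0.39 (SE 0.20, 95% interval -0.87 to 0.087, limma unadjusted p = 0.0953). An exact permutation test gave p = 0.1, the smallest that 3 against 3 arrays allow. The difference was -0.13 without mutant 2, and -0.55 without the array labelled mutant 1 (limma unadjusted p = 0.0321, adjusted p = 1.00).

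**Figure D2:**
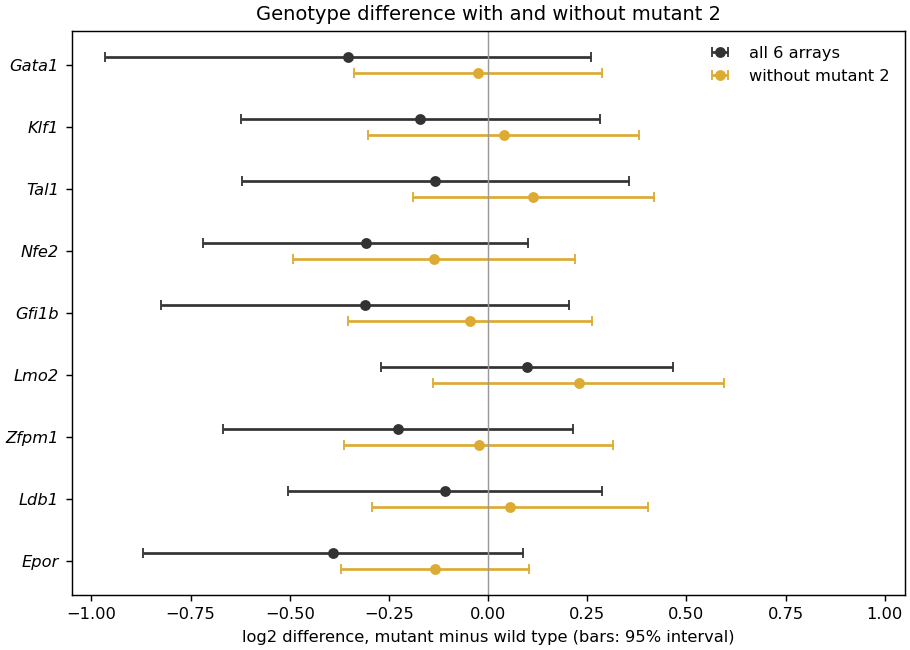
Log2 difference between mutant and wild-type means for each gene with its 95% interval from limma, over all 6 arrays (dark) and without mutant 2 (yellow). Every interval includes 0, and the value for Gata1 moves from -0.35 to -0.026 when mutant 2 is left out.

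The lowest values lay in 1 library. Mutant 2 was below the lowest wild type for 8 of 9 genes, against 27.7% of all tested probe sets. The array labelled mutant 1 was below it for 3 of 9 (25.3% of all), namely Nfe2, Ldb1 and Epor, and mutant 3 for 1 of 9 (22.7% of all), Epor. Mutant 2 was the lowest of the 6 arrays for 8 genes (18.4% of all). It read at least 0.5 below the wild-type mean for 7 genes, where 1.65% of all tested probe sets did. In folds, Gata1 was 2.01-fold lower there, Epor 1.87-fold, Gfi1b 1.79-fold, Nfe2 1.57-fold, Zfpm1 1.55-fold, Tal1 1.54-fold, Klf1 1.51-fold, Ldb1 1.35-fold and Lmo2 1.12-fold. These are values of 1 yolk sac with no replicate. The median over the 9 genes came to -0.63 in mutant 2, -0.0089 in mutant 3 and 0.014 in the array labelled mutant 1. In a whole yolk sac, fewer erythroid cells and less RNA of a gene per cell cannot be told apart.

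**Figure D3:**
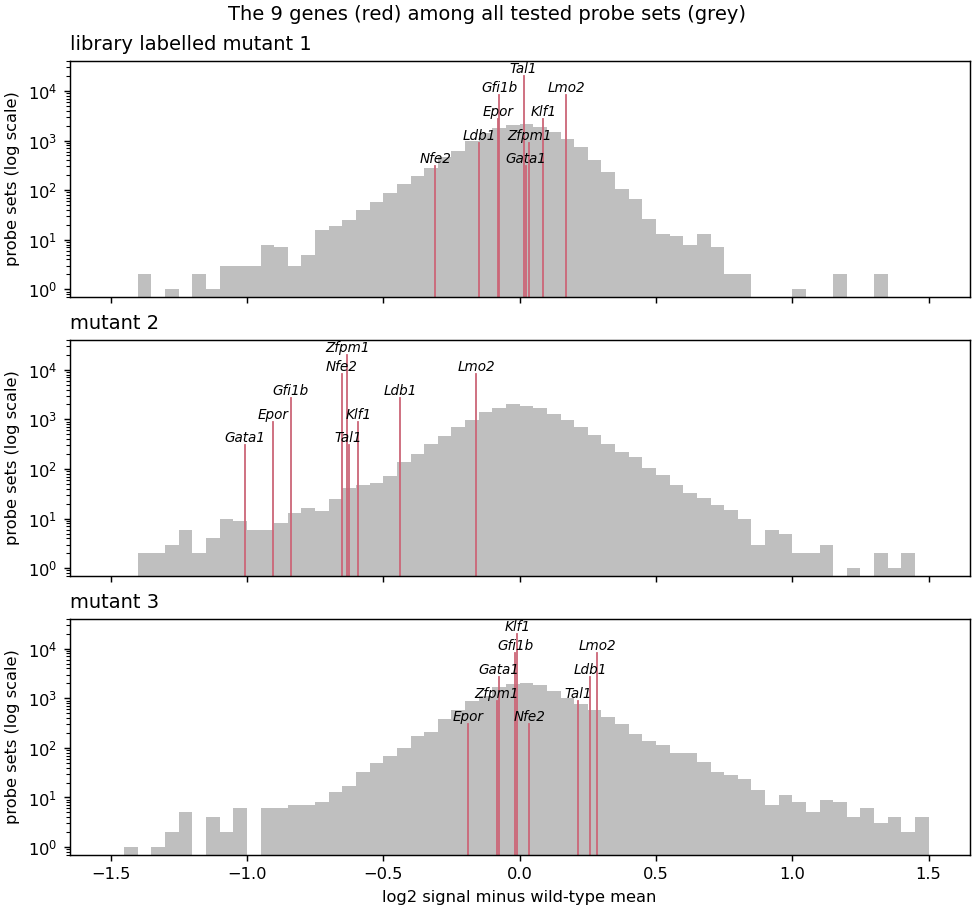
Log2 signal minus the wild-type mean in each mutant library for all 16387 tested probe sets (grey histogram, log scale, drawn from -1.5 to 1.5) and for the 9 genes (red lines with names; line heights carry no value). In mutant 2 the lines lie on the left, from -1.01 for Gata1 to -0.16 for Lmo2, while in mutant 3 they run from -0.19 to 0.28.

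The wild types were not alike either. Wild type 2 was the lowest wild type for 8 of the 9 genes, all but Ldb1 (34.0% of all tested probe sets), with a median of -0.18 from the wild-type mean. Wild type 3 was the highest wild type for 6 genes, but the share over all tested probe sets was not counted for this. Wild type 2 and mutant 2 were also the libraries with the highest summed trophoblast and decidua signal, given above. In mutant 2 the brightest gene of that list was Prl8a2, while the median of its 7 tested genes was -0.0092 from the wild-type mean, against 0.65 in wild type 2. Igfbp1, a decidual growth factor binding protein gene named after its values were seen, read 7.89 in wild type 2 and 6.75 in mutant 2, its highest and lowest values. The part of this tissue in the result was not tested. Without wild type 2 and mutant 2 together, a comparison added after the values were seen, the log2 difference was -0.12 for Gata1, -0.17 for Epor and -0.22 for Nfe2, and none of the 9 genes had an unadjusted p under 0.05 in limma.

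Products of red cells were also lowest in mutant 2. Of 31 measured genes of globin chains, haem synthesis, membrane and iron uptake, 30 had a lower mutant mean. None had an adjusted p under 0.05 in limma. At an unadjusted p under 0.05 there were 3, all lower, against 1.28% of all tested probe sets. That count was 0 without wild type 3 and 1 without wild type 1, wild type 2 or mutant 2. It was 10 without mutant 3 or the array labelled mutant 1. The 3 genes were Hbb-y at a log2 difference of -0.25 (SE 0.092), Alas2 at -0.53 (SE 0.21) and Rhd at -0.73 (SE 0.29). Alas2 encodes the first enzyme of erythroid haem synthesis, and Rhd is an Rh antigen gene named after its value was seen. The embryonic globin genes Hba-x and Hbb-bh1 differed by -0.22 and -0.16, and Slc4a1, the band 3 anion exchanger, by -0.34. The genotypes did not overlap for 6 of the 31, all lower, against 3.38% of all tested probe sets. The median difference was -0.29, and -0.075 without mutant 2. Mutant 2 was below the lowest wild type for 29 of 31, against 27.7% of all tested probe sets. The list's mean distance from wild type came to -0.72 in mutant 2, -0.078 in mutant 3 and -0.10 in the array labelled mutant 1.

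Against that mean, the 9 genes were spread to both sides in mutant 2. Relative to the list of red cell products, Gata1 read -0.28 there, Epor -0.18 and Gfi1b -0.12. Nfe2 read 0.072, Zfpm1 0.091, Tal1 0.096 and Klf1 0.13 relative to it. Ldb1 and Lmo2 lay furthest above, at 0.28 and 0.56. For Lmo2, which endothelium also expresses, the mutant minus wild-type difference relative to the list was 0.40, the highest of the 9, and for Epor it was -0.091, the lowest. The median over the 9 genes was 0.074. Against the 3 globin genes with a probe set of their own it was -0.019. In mutant 2 the median over the 9 genes was 0.091 relative to the list but -0.20 relative to these globin genes. Relative to the globin genes, all but Lmo2 (0.27) read negative in mutant 2, from Gata1 at -0.58 to Ldb1 at -0.0078. The spread to both sides thus depended on the reference. These relative values are descriptions without a test.

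The genes of proteins that work beside these factors were spread to both sides. All 33 listed partners were measured, and 21 had a higher and 12 a lower mutant mean, with a median log2 difference of 0.051. None had an adjusted p under 0.05 in limma. At an unadjusted p under 0.05 there were 2, both higher, against 3.53% of all tested probe sets in either direction. These were Runx1, a regulator of definitive blood, at 0.32 (SE 0.12), and the ETS factor gene Fli1 at 0.39 (SE 0.15). Neither passed without wild type 2 or wild type 3. Mutant 2 was below the lowest wild type for 11 of 33, against 27.7% of all tested probe sets. Gata2, the GATA factor that precedes GATA1 in blood progenitors, read 6.23, 6.59 and 6.37 in wild type and 6.42, 6.62 and 6.60 in the mutants (log2 difference 0.15, SE 0.11). Its highest library was mutant 2, where Gata1 was lowest. Lyl1, a relative of Tal1, differed by -0.011, and Cbfa2t3, the ETO2 co-repressor of the TAL1 complex, by -0.057. Mutant 2 was the lowest of the 6 arrays for 10 of the 33 partners, against 18.4% of all tested probe sets. Among them were Lyl1, at -0.25 from the wild-type mean there, and Ssbp2, at -0.37, named after its values were seen.

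Receptor signalling genes were also spread around 0. Of 20 listed genes, 18 were measured and 17 tested; Epo itself, the ligand, read 3.20 to 3.47, below the limit on dim probe sets. None of the 17 had an adjusted p under 0.05 in limma. An unadjusted p under 0.05 was found for 1 (3.53% of all tested probe sets), Pik3r1, a regulatory subunit of PI3 kinase, at 0.25 (SE 0.087). Pik3r1 no longer passed without wild type 2, wild type 3 or mutant 3. Tfr2, a transferrin receptor that associates with the erythropoietin receptor, read 5.27, 5.40 and 5.49 in wild type and 5.24, 4.83 and 5.23 in the mutants, lowest in mutant 2 (log2 difference -0.29, SE 0.13). The kinase gene Jak2 differed by 0.036, Stat5a by 0.0042 and the survival gene Bcl2l1 by -0.051. Mutant 2 was below the lowest wild type for 4 of the 17, against 27.7% of all tested probe sets. Among them was Pim1, named after its values were seen, which read 8.35 there, -0.75 from the wild-type mean. The median over the list was 0.0084.

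**Figure D4:**
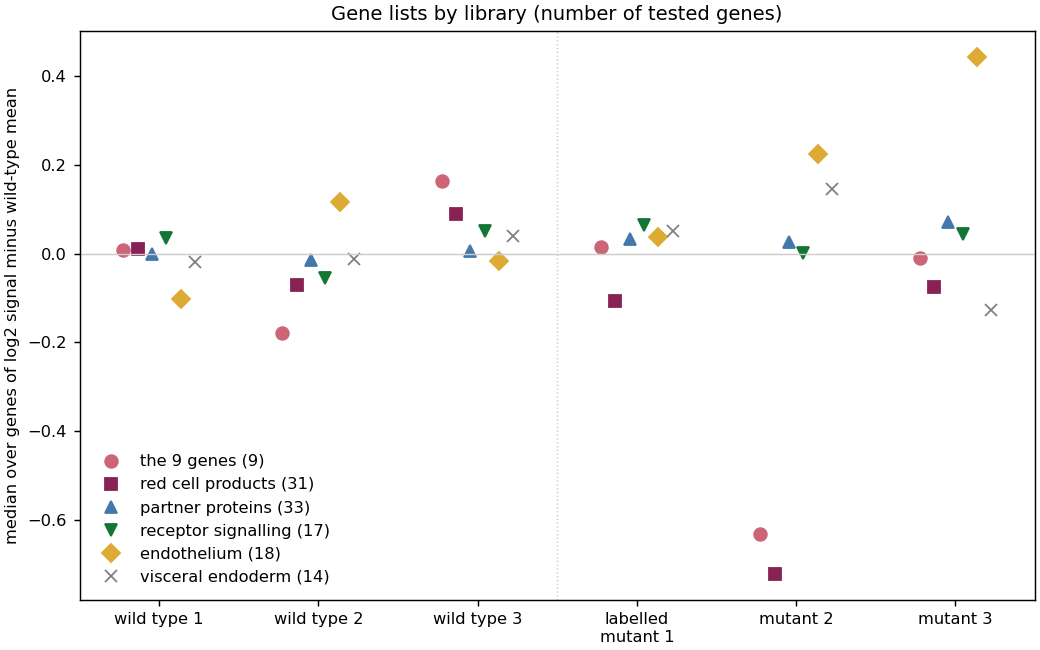
Median over the genes of each list of the log2 signal minus the wild-type mean, for each of the 6 libraries, with the number of tested genes in brackets. In mutant 2 the 9 genes (-0.63) and red cell products (-0.72) lie apart from the partners (0.026), receptor signalling (0.0011), endothelium (0.23) and visceral endoderm (0.14).

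Several of the factors are shared with other cells, whose markers were read beside them. Megakaryocytes also use Gata1, Tal1, Nfe2, Gfi1b and Zfpm1. Of 10 measured megakaryocyte markers 9 were tested and 8 had a lower mutant mean, with a median difference of -0.074. An unadjusted limma p under 0.05 was found for 2 of the 9, both lower, against 1.28% of all tested probe sets. These were Itgb3, the platelet integrin beta 3 chain, at -0.42 (SE 0.14), and Pf4, platelet factor 4, at -0.57 (SE 0.21). Itga2b, the integrin partner of Itgb3, differed by -0.040. Their summed linear signal was 952 to 1163 in wild type and 892 to 1034 in the mutants. Endothelial markers, for cells that also express Tal1 and Lmo2, had a higher mutant mean for 18 of 18, with a median of 0.22. The libraries were uneven. The list's median distance from the wild-type mean was 0.44 in mutant 3, 0.23 in mutant 2 and 0.038 in the array labelled mutant 1. In wild types 1 to 3 it was -0.10, 0.12 and -0.017. Of the 18, 4 had an unadjusted limma p under 0.05, against 3.53% of all tested probe sets in either direction. These were Kdr, a VEGF receptor gene, at 0.40 (SE 0.13), the receptor genes Tie1 at 0.28 (SE 0.089) and Tek at 0.29 (SE 0.10), and the ETS factor gene Erg at 0.38 (SE 0.13), with Tek and Erg named after their values were seen. Cdh5, VE-cadherin, was not among them, at 0.30 (SE 0.15). Their summed signal was 3412 to 3972 in wild type and 3771 to 4925 in the mutants. Visceral endoderm markers had a median difference of 0.012, with Apob at 0.15 and Apoa4 at 0.13, both apolipoprotein genes, and their sum was highest in mutant 2.

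Markers of further cells gave 1 more gene at an unadjusted limma p under 0.05 (3.53% of all tested probe sets). Of 11 tested progenitor genes this was Mecom, a stem cell transcription factor gene, at 0.36, and Angpt1, the ligand of the endothelial receptor TIE2, differed by 0.45. Of the 11, 8 had a higher and 3 a lower mutant mean. Among the lower was Ikzf1, named after its values were seen, at -0.35, and at -0.77 from the wild-type mean in mutant 2. Of 10 tested macrophage and myeloid genes 7 had a lower mutant mean, with Ptprc (CD45) at -0.19 and the myeloperoxidase gene Mpo at -0.22. Of 11 tested mesenchyme genes 8 had a higher mutant mean, with Foxf1 at 0.24 and Hand1 at 0.23, both mesoderm transcription factor genes. The summed mesenchyme signal was highest in wild type 2 (11839) and mutant 2 (10511), against 6950 to 8533 elsewhere. Of 7 tested trophoblast and decidua genes 4 had a higher mutant mean, among them Prl8a2 at 0.47 (SE 1.59), and 3 a lower one. Among the lower were Prl4a1 at -1.11 (SE 0.76) and Bmp8a at -0.054. Prl4a1 read 7.13 in wild type 2, against 4.91 in wild type 1 and 4.06 in wild type 3. The part of any of these cells in the values of the 9 genes was not tested.

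Of the 10 genes most like the 9 across libraries, 5 were red cell products. Likeness was Pearson's r over the 6 arrays with the mean of the 9 centred profiles, among 3793 tested probe sets of other genes that ranged over at least 0.5. All the arrays enter each r, and the low value of mutant 2 is shared by all of these genes. The 10 highest were Fech, the last enzyme of haem synthesis (r = 0.996), the ankyrin gene Ank1 (0.991), the mitochondrial iron importer gene Slc25a37 (0.991), Grap2 (0.989), Unc13d (0.988), the adducin gene Add2 (0.988), Samd14 (0.987), Kcnn4, the red cell calcium-activated potassium channel (0.987), Cpox, a haem synthesis enzyme (0.986), and Foxh1 (0.986). Of these, Fech, Ank1, Slc25a37, Add2 and Cpox belong to the list of red cell products. That list held 31 tested genes, and how many of them were among the 3793 was not counted. For Gata1 alone the 3 most alike were Unc13d (0.995), Kcnn4 (0.993) and Foxh1 (0.989). For Klf1 they were Alad, a haem synthesis enzyme (0.992), Add2 (0.984) and Ptp4a3 (0.981), and for Epor they were Mfsd2b (0.996), the red cell membrane gene Ermap (0.995) and Uba7 (0.994). For Ldb1 they were Mrgbp (0.996), Phf10 (0.991) and Bckdhb (0.990), none of them in that list. Foxh1 in mutant 2 had a log2 difference of -1.37 from the wild-type mean, further than any of the 9 genes.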

How the data were processed

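The table deposited by the authors holds log2 signals of 35557 probe sets for 3 wild-type and 3 mutant yolk sacs, grouped by sample title. MAS5 is the only tool in the submitters' processing notes; how arrays were background-corrected, summarised and normalized is not stated there. The log2 scale was read from the values (0.66 to 13.7), which were used as deposited. Arrays give no read depth. Names came from the annotation GEO holds for the platform, in which 21789 probe sets had 1 symbol, 1621 several and 12147 none; only those with 1 symbol were named. Of those with any symbol, the 16387 whose mean reached the 30th percentile (4.29) were tested with limma 3.58.1 in R 4.3.3, mutant minus wild type, with Benjamini-Hochberg adjustment over all of them and a threshold of 0.05; the fit was tested on simulated data. Single values were tested by exact two-sided permutation over 20 label assignments (smallest p 0.1). A gene with several probe sets was read at its brightest. In each list up to 4 genes past the adjusted threshold, otherwise the 2 with the lowest p, were named beside a preset list of genes. The members, lists and tests were chosen with earlier results of these data known. Upstream sequences came from RefSeq tables. Alternatives were other normalizations, filters, variance models and tests, array weights, a replicate block, an Xist covariate and leaving out libraries.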

Additional observations from a re-analysis of the deposited data

How the results depend on the processing

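The table gives no signal over background, and 3 arrays a genotype limit what can be seen. No probe set and none of the 9 genes passed an adjusted p of 0.05 in limma or in the methods' t-test under any of the 17 alternatives. The lowest adjusted p of the 9 genes was 0.592, for Nfe2 without mutant 3. The count of 579 probe sets at an unadjusted p under 0.05 became 1086 with array weights and 395 to 1372 when 1 library was left out (1372 without mutant 3). Of the 9 genes, 1 had an unadjusted p under 0.05 with array weights (Nfe2) and 1 with the Xist covariate (Epor), and 0 to 2 did when 1 library was left out, with 2 (Nfe2 and Ldb1) without mutant 3. The number with a lower mutant mean ran from 5, without mutant 2, to 9. The sign turned without mutant 2 for Klf1 (-0.30 to 0.039 with 1 array omitted), Tal1 (-0.31 to 0.11) and Ldb1 (-0.29 to 0.055). Without wild type 2 and mutant 2 together, Tal1 was at 0.035 and Ldb1 at 0.11. Lmo2 turned to -0.0084 with array weights, -0.030 with the Xist covariate and -0.013 without wild type 2, with leave-one-out values up to 0.23. Gata1, Zfpm1, Gfi1b, Nfe2 and Epor stayed lower in all 18 alternatives run for them. Several of these could not turn the sign. The filters, variance models, t-test, replicate block and averaging of a gene's probe sets leave the difference itself unchanged. Without mutant 2 the differences were -0.026 for Gata1, -0.024 for Zfpm1, -0.046 for Gfi1b, -0.14 for Nfe2 and -0.13 for Epor. The median of the 9 genes in mutant 2 was lowest with wild type 2 omitted (-0.73) and highest with wild type 3 omitted (-0.55) among its 5 alternatives. Relative to globin genes alone, the median of the 9 was -0.019 in place of 0.074. The Xist covariate and leaving out wild type 2 and mutant 2 were chosen after seeing the data; the causes of these shifts were not tested.

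With the replicate number as a block, 2 of the 9 genes had an unadjusted limma p under 0.05 (Nfe2 and Epor). So did 12 in place of 3 red cell products and 727 in place of 579 tested probe sets, with 0 adjusted calls. Whether the numbers pair the samples is not settled by these values. Deviations of same-numbered libraries correlated at 0.45, 0.15 and -0.11 across tested probe sets. Those of differently numbered libraries correlated at -0.45 to 0.24.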
